A study of Homo sapiens with 6 samples.

Results

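The mitotic spindle, kinetochore and condensin genes are a list of 55 genes, named by their roles in cell division and found in the deposited table by symbol. The list was drawn up with earlier results of these data known, so its choice was not independent of them. All 55 were listed among the 54308 genes of that table, all had a value in each of the 6 libraries, and all 55 were among the 19306 genes that could be tested. The libraries came from 143B, an established human osteosarcoma (OS) cell line, transfected, per the labels for 48 h, either with a vector plasmid (vector control, VC, 3 replicates) or with a CRISPR/Cas9 plasmid against CNTNAP4 (knockout, KO, 3 replicates). The study's methods give a longer incubation before the sort, and for the control a plasmid with a negative control guide RNA. CNTNAP4 encodes a neurexin-family membrane protein. Per the study's methods, the cells were grown from single sorted cells and 2 KO colonies were expanded. The labels do not say which colony gave which library, so KO libraries may share a clone, and a difference between clones and an effect of the deletion cannot be told apart here.

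At mitosis each chromosome is compacted by condensin and topoisomerase and is caught by spindle microtubules at its kinetochore, a protein complex built on nucleosomes that carry the histone variant CENP-A. Checkpoint proteins hold back the anaphase-promoting complex until every kinetochore is attached, and motor proteins then separate the chromosomes and organise cytokinesis. Many of these genes are transcribed in G2 and M phase, under the DREAM and B-MYB-MuvB complexes, FOXM1 and the factor NF-Y, and their RNA levels are widely used as a readout of dividing cells. In bulk RNA a smaller share of cells in G2 and M phase and less of the RNA in each such cell cannot be told apart.

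The promoters of these genes are shown first, because many share letters that those regulators are known to bind. RefSeq promoter windows (GRCh38.p14, from 250 bases before to 50 bases after the start) were found for 46 of the 55 genes. CENPH, CENPL, CENPM, BUB3, TTK, AURKA, BIRC5, TPX2 and UBE2C had no entry. The windows were searched on both strands for TTTGAA or TTCGAA, the letters of the CHR element (cell cycle genes homology region), for CCAAT, and for TTCCCGC or TTGGCGC, letters of E2F sites. The 6 stretches below belong to the genes with the largest called decreases among those with CHR and CCAAT letters at most 60 bases apart before the start. They run 5′ to 3′ on the strand of the gene, and capitals mark the CHR and CCAAT letters on either strand. In CDCA8 the TTTGAA and the ATTGG that follows it share an A, and in HMMR the CCAAT and ATTGG letters of the run also overlap.
ASPM (chr1:197146718-197146815, minus strand): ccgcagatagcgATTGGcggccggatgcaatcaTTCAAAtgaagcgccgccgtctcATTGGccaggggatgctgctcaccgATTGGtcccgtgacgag
DLGAP5 (chr14:55191656-55191735, minus strand): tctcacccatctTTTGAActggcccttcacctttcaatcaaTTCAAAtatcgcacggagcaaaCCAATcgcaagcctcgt
TOP2A (chr17:40417973-40418146, minus strand): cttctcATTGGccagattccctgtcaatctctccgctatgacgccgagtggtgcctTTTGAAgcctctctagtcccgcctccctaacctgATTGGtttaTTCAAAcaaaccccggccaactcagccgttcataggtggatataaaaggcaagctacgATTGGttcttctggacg
CDCA8 (chr1:37692429-37692510, plus strand): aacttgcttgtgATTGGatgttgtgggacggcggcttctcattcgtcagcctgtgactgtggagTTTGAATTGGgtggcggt
HMMR (chr5:163460551-163460627, plus strand): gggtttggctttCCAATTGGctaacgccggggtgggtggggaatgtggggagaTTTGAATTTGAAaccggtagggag
KIF11 (chr10:92593065-92593119, plus strand): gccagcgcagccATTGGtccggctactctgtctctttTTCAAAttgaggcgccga

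CHR letters were held by 33 of the 46 genes, or 71.7%, against 19.5% of the 27305 genes with a window and 16.0% of the 13441 of these that were tested. CCAAT was also held by 33 (71.7%), against 39.7% of all genes with a window and 42.1% of the tested ones. CHR and CCAAT letters at most 60 bases apart were held by 20 (43.5%), against 3.92% and 3.53%. The E2F letters were held by 9 (19.6%), against 11.0% of all and 16.4% of the tested genes, so this share was near that of the tested genes. With the 250 bases before the start alone, the CHR share was 50% of the 46 genes and 17.2% of all, and 14.0% of the tested ones. Matches are letters in a window and not sites shown to be bound.

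KO libraries held less RNA of nearly the whole list than VC libraries. The log2 fold change, KO minus VC throughout and called the difference below, was negative for 53 of the 55 genes and had a median of -0.65, which is 63.5% of the VC signal, where the median of all 19306 tested genes was -0.13. Under limma's moderated test, adjusted by the Benjamini-Hochberg method over all tested genes, 46 of the 55 genes fell (adjusted p under 0.05), where 19.8% of all tested genes did. In the upper 50% of mean signal, which held 54 of the 55 genes, 22.5% of genes were called lower in the same fit. No gene of the list was called higher, against 13.1% of all tested genes, and 1 (CENPH) was higher at an unadjusted p under 0.05. A called decrease of at least 1 on the log2 scale was reached by 5 genes (AURKA, ANLN, TPX2, ASPM and NDC80), against 5.43% of all tested genes. All 3 KO values lay under all 3 VC values in 48 of the 55 genes, against 36.7% of the genes with 6 values, and above them in 1, against 22.6%.

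The count of calls rested on single libraries, while the direction did not. Leaving out VC replicate 1, 2 or 3 gave 6, 14 or 5 called genes, and leaving out KO replicate 1, 2 or 3 gave 51, 33 or 12, where the share of all tested genes called lower was 3.47%, 7.45% and 3.05% and 31.0%, 14.3% and 5.54% in the same fits. As shares of the 55 these counts are 10.9%, 25.5% and 9.09% and 92.7%, 60% and 21.8%. In these 6 fits 53 or 54 of the 55 genes had a negative log2 fold change, 46 to 52 were lower at an unadjusted p under 0.05, and the median ranged from -0.79 to -0.58. AURKA, TPX2, NDC80, DLGAP5 and UBE2C were called in all 6, and every other called gene missed the threshold in at least 1 of them. Of the 55 genes, 1 was called in 5 of these fits, 6 in 4 and 2 in 3. A further 19 were called in 2 fits, 18 in 1 and 4 in none.

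**Figure D1:**
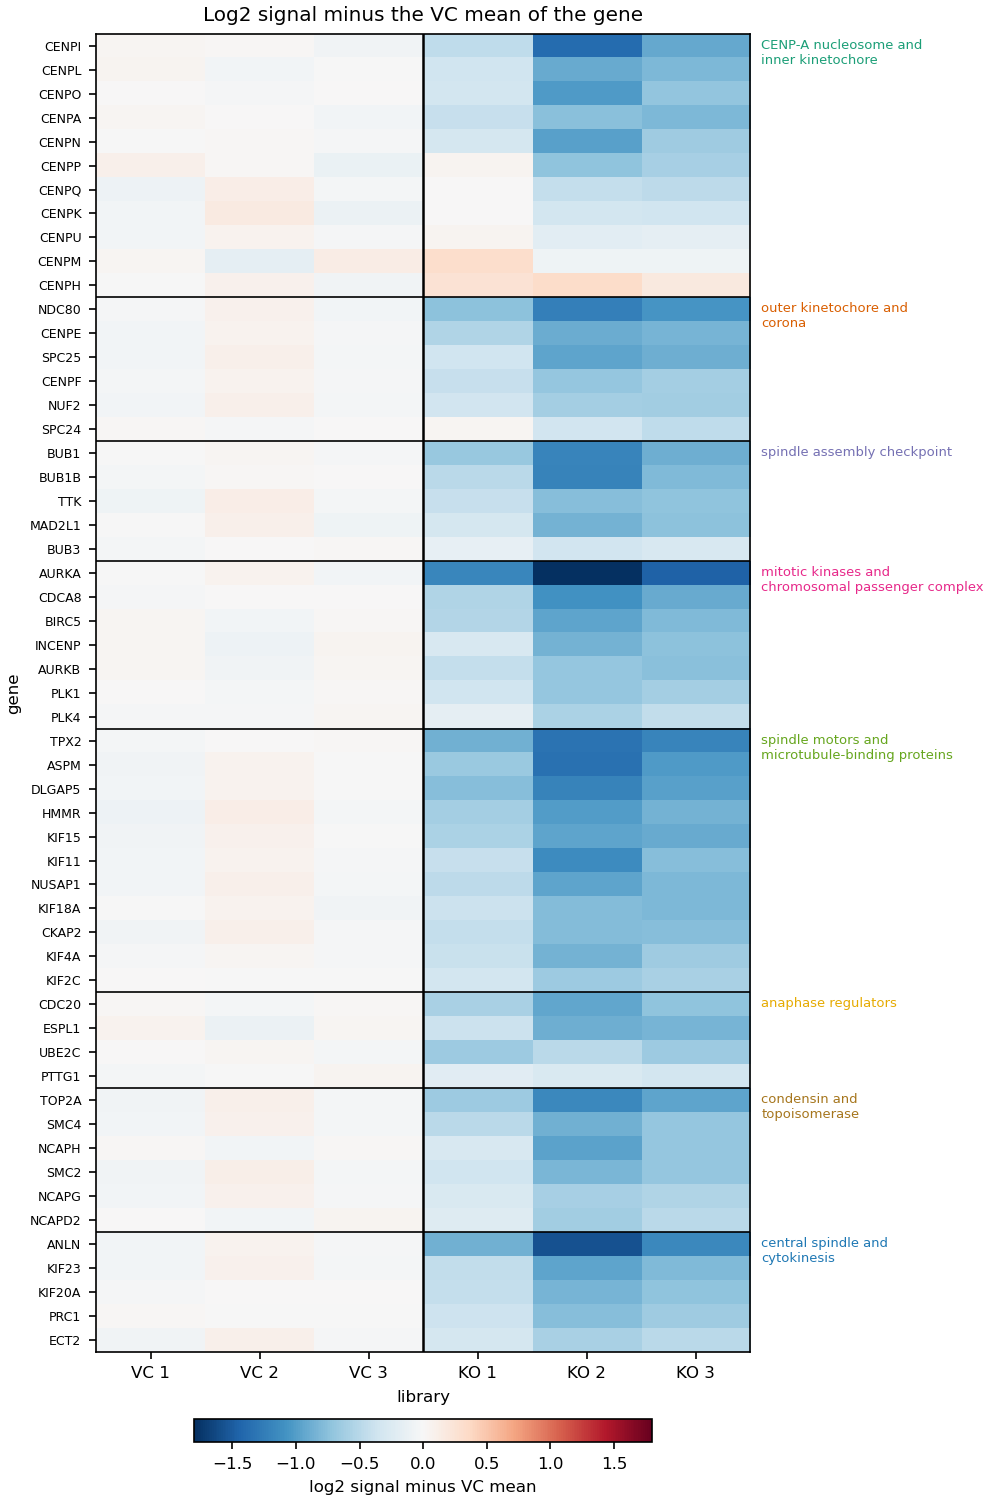
Log2 signal minus the VC mean of the same gene (colour) for the 55 genes (rows, grouped by role and ordered by log2 fold change) in the 3 VC and 3 KO libraries (columns). KO replicate 2 is the darkest blue column, KO replicate 1 is the palest, and CENPH and CENPM are the genes with a positive log2 fold change.

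The 3 KO libraries differed in how far they lay from VC. Over the 55 genes the median difference from the VC mean was -0.40 in KO replicate 1, -0.85 in KO replicate 2 and -0.73 in KO replicate 3, where it was -0.05, -0.16 and -0.15 over all tested genes. KO replicate 1 had the highest of the 3 KO values in 53 of the 55 genes (96.4%, against 53.5% of the genes with 6 values), and KO replicate 2 had the lowest in 44 (80.0%, against 43.7%). In the other 2 genes, UBE2C and CENPH, KO replicate 2 had the highest KO value. KO replicate 1 was not under the lowest VC value in 7 genes (CENPH, CENPK, CENPM, CENPP, CENPQ, CENPU and SPC24), and KO replicates 2 and 3 were each above it in CENPH and CENPM. The median SD was 0.060 among VC libraries and 0.22 among KO libraries over the 55 genes. Over the genes of the upper 50% of mean signal it was 0.060 and 0.12.

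**Figure D2:**
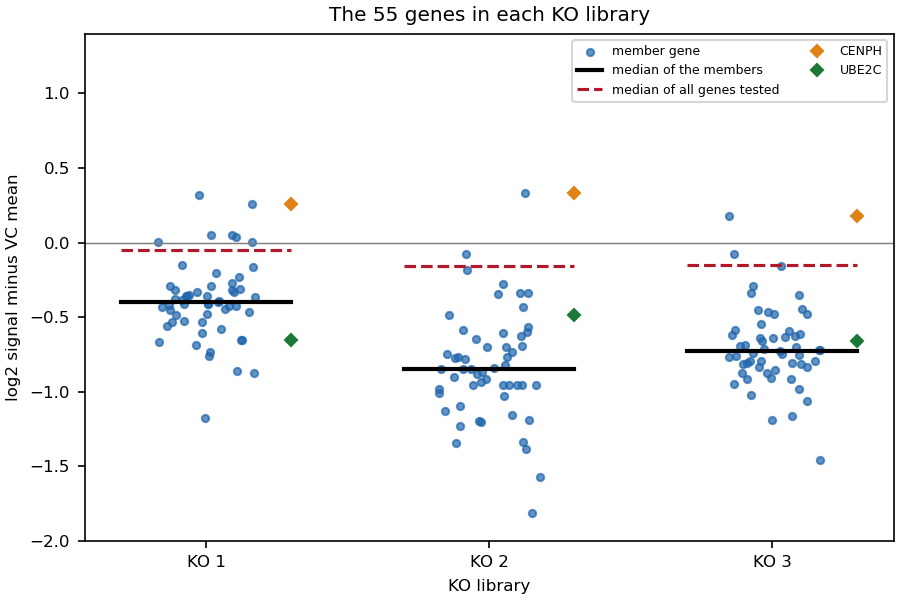
Log2 signal minus the VC mean for each of the 55 genes (points) in each KO library, with the median of the 55 genes (black bars) and of all tested genes (dashed red bars). The medians of the 55 genes are -0.40, -0.85 and -0.73, and diamonds mark CENPH and UBE2C, whose highest KO value is in KO replicate 2.

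The inner kinetochore genes moved least evenly, with 5 of 11 called lower, where 19.8% of all tested genes were. CENPA, the histone variant that marks centromeres, fell by 0.65 (adjusted p = 0.0192), and so did 4 of the 10 genes of the complex that sits on CENP-A nucleosomes. CENPI had log2 signals, in the order of replicates 1 to 3 here and below, of 2.16, 2.15 and 2.07 in VC and 1.68, 0.74 and 1.21 in KO, a difference of -0.92 ± 0.24 (SE, adjusted p = 0.0394). CENPL had 2.83, 2.73 and 2.77 in VC and 2.42, 1.87 and 1.97 in KO (-0.69 ± 0.16 SE, adjusted p = 0.0300). Every KO value of both genes was under every VC value, with KO replicate 1 closest to VC. CENPN, the partner of CENPL in reading the CENP-A nucleosome, fell by 0.64, and CENPO by 0.69.

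CENPH, CENPI, CENPK and CENPM form a single subcomplex, and their values went different ways. CENPH had log2 signals of 5.31, 5.39 and 5.26 in VC and 5.58, 5.65 and 5.50 in KO, so that all 3 KO libraries were above all 3 VC libraries. Its log2 fold change of 0.25 (standard error 0.079) had an adjusted p of 0.0574, between 0.0180 and 0.173 over the alternatives tried. CENPM had 3.30, 3.11 and 3.40 in VC and 3.59, 3.20 and 3.19 in KO. The groups overlapped, with a log2 fold change of 0.06 (95% interval -0.32 to 0.43, adjusted p = 0.793). For CENPK the log2 fold change was -0.23 (95% interval -0.57 to 0.12, adjusted p = 0.243). The differences among these genes were not tested, since they were picked out after their values had been seen.

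The CENPO, CENPP, CENPQ and CENPU products belong to another subcomplex, on which PLK1 docks. Beside the fall of CENPO, the difference was -0.43 for CENPP (adjusted p = 0.187), -0.30 for CENPQ (adjusted p = 0.181) and -0.10 for CENPU (adjusted p = 0.446). In these last genes KO replicate 1 lay within the VC values (0.35 for CENPP, 3.35 for CENPQ and 5.22 for CENPU). Without KO replicate 1 the adjusted p was 0.0102 for CENPP and 0.0188 for CENPQ. Of the 9 genes of the list that were not called, 6 belong to the inner kinetochore.

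At the outer kinetochore, 5 of 6 genes fell, where 19.8% of all tested genes did. NDC80, which gives its name to the complex that grips microtubule ends, had log2 signals of 5.67, 5.77 and 5.66 in VC and 4.97, 4.47 and 4.64 in KO, a difference of -1.01 ± 0.14 (SE, adjusted p = 0.0119). The highest KO value was well under the lowest VC value, and no leave-one-out fit gave an adjusted p above 0.0489. Its partners in the complex fell less or were not called, with log2 fold changes of -0.53 for NUF2 (adjusted p = 0.0213), -0.73 for SPC25 (adjusted p = 0.0325) and -0.25 for SPC24 (95% interval -0.61 to 0.11, adjusted p = 0.219). SPC24 had 3.36, 3.31 and 3.34 in VC and 3.38, 3.00 and 2.89 in KO, with KO replicate 1 above all VC libraries, and its adjusted p was 0.0142 without that library. CENPE, a kinesin that moves chromosomes to the spindle equator, had 3.70, 3.82 and 3.73 in VC and 3.21, 2.85 and 2.91 in KO (-0.76 ± 0.12 SE, adjusted p = 0.0137). CENPF, a coiled-coil protein of the kinetochore corona, fell by 0.58 on the log2 scale.

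Of the 5 spindle assembly checkpoint genes, 4 fell, against 19.8% of all tested genes. BUB1, a checkpoint kinase, had log2 signals of 5.12, 5.17 and 5.11 in VC and 4.45, 3.94 and 4.25 in KO, a difference of -0.92 ± 0.14 (SE, adjusted p = 0.0133). BUB1B, which encodes BUBR1 of the mitotic checkpoint complex, had 5.86, 5.92 and 5.90 in VC and 5.41, 4.70 and 5.10 in KO (-0.83 ± 0.19 SE, adjusted p = 0.0290). In both genes the VC libraries lay close together (SD 0.032 and 0.030) and KO replicate 2 was lowest. MAD2L1, which encodes MAD2, the inhibitor of CDC20, fell by 0.63, and the kinase TTK (MPS1) by 0.64. BUB3, the adaptor of both BUB proteins, had 5.01, 5.05 and 5.06 in VC and 4.89, 4.69 and 4.75 in KO, a difference of -0.26 ± 0.079 (SE, adjusted p = 0.0540). Its groups did not overlap, and its adjusted p was 0.0175 without KO replicate 1 and 0.154 at most with another library left out.

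Among the mitotic kinases and the chromosomal passenger complex, 6 of 7 genes fell, against 19.8% of all tested genes. AURKA, the Aurora kinase of centrosomes and spindle poles, had the lowest log2 fold change of the list. Its log2 signals were 6.08, 6.16 and 6.04 in VC and 4.91, 4.28 and 4.63 in KO, a difference of -1.48 ± 0.17 (SE, adjusted p = 0.00952), or 35.8% of the VC signal. Leaving out VC replicate 3 gave the largest leave-one-out adjusted p, 0.0436. TPX2, which activates AURKA on spindle microtubules and is grouped here with the spindle proteins, had the lowest difference but for AURKA and ANLN, at 6.99, 7.03 and 7.04 in VC and 6.15, 5.69 and 5.83 in KO (-1.13 ± 0.13 SE, adjusted p = 0.00963). AURKA, TPX2 and UBE2C lie on chromosome 20, where the other 283 tested genes of the upper 50% of mean signal were shifted too, by a median of -0.24, where all genes of that level had -0.09. Relative to the median of chromosome 20, AURKA had -1.24, TPX2 -0.89 and UBE2C -0.35, in place of -0.60. Without the chromosome 20 genes, the median of the list was -0.65. With each gene set against the median of its own chromosome, it was -0.57.

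The passenger complex brings the Aurora kinase AURKB to centromeres and to the midzone. All 4 of its genes fell, where 19.8% of all tested genes did. The log2 fold changes were -0.85 for CDCA8 (borealin), -0.76 for BIRC5 (survivin), -0.63 for INCENP and -0.62 for AURKB. CDCA8 had log2 signals of 5.31, 5.34 and 5.34 in VC and 4.79, 4.23 and 4.42 in KO (SE 0.155, adjusted p = 0.0179), and its groups were far apart. PLK1, a kinase of mitotic entry and exit, fell by 0.56 (adjusted p = 0.0198). PLK4, the kinase that starts centriole duplication, had 3.32, 3.31 and 3.37 in VC and 3.17, 2.77 and 2.89 in KO (-0.39 ± 0.12 SE, adjusted p = 0.0572). Its KO values were all under its VC values, with adjusted p = 0.00949 without KO replicate 1 and up to 0.149 without one of the others.

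All 11 genes of spindle motors and microtubule-binding proteins fell, by a median of 0.77 on the log2 scale. Of all tested genes, 19.8% were called lower. Beside TPX2, the largest decrease was that of ASPM, a protein of spindle poles, with log2 signals of 3.79, 3.92 and 3.85 in VC and 3.19, 2.51 and 2.83 in KO (-1.01 ± 0.18 SE, adjusted p = 0.0175). DLGAP5, a spindle assembly factor, fell by 0.98 (largest leave-one-out adjusted p 0.0459). It lies on chromosome 14, whose 334 tested genes outside the 55 in the upper 50% of mean signal had a median of -0.35. HMMR fell by 0.82 and NUSAP1, a protein that bundles spindle microtubules, by 0.74. KIF11, the bipolar kinesin that pushes spindle poles apart, had 5.20, 5.31 and 5.21 in VC and 4.83, 4.11 and 4.47 in KO (-0.77 ± 0.19 SE, adjusted p = 0.0348). The KO values of KIF11 were the most widely spread of this group (SD 0.36), and none reached the VC range. KIF15, which works beside KIF11, had -0.81, the length regulator KIF18A -0.66, CKAP2 -0.66, the chromokinesin KIF4A -0.63 and the depolymerase KIF2C -0.52.

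Anaphase is set off by CDC20, the activator of the anaphase-promoting complex, and by UBE2C, the ubiquitin-conjugating enzyme of that complex, through the loss of securin (PTTG1) and the release of separase (ESPL1). All 4 genes fell, where 19.8% of all tested genes did. CDC20 had log2 signals of 7.82, 7.76 and 7.82 in VC and 7.22, 6.87 and 7.08 in KO (-0.74 ± 0.11 SE, adjusted p = 0.0124). ESPL1 had 3.30, 3.13 and 3.27 in VC and 2.85, 2.35 and 2.40 in KO (-0.70 ± 0.155 SE, adjusted p = 0.0275). In both, KO replicate 2 was lowest. UBE2C had 6.83, 6.87 and 6.79 in VC and 6.17, 6.35 and 6.17 in KO (-0.60 ± 0.080 SE, adjusted p = 0.0108), or -0.35 relative to the median of chromosome 20. Its KO libraries lay close together and KO replicate 2 was the highest of them. PTTG1 changed least of the called genes, from 6.14, 6.17 and 6.22 in VC to 5.97, 5.90 and 5.84 in KO (-0.27 ± 0.071 SE, adjusted p = 0.0390). It held without KO replicate 1 (0.0221) and missed the threshold without any of the others (0.0723 to 0.131) and with median-centred libraries (0.0898).

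Condensin and topoisomerase genes fell in all 6 cases, against 19.8% of all tested genes. TOP2A, the topoisomerase that untangles sister chromatids, had log2 signals of 6.64, 6.79 and 6.67 in VC and 6.05, 5.55 and 5.76 in KO (-0.92 ± 0.14 SE, adjusted p = 0.0138). SMC4, an ATPase subunit shared by both condensins, had 6.31, 6.44 and 6.33 in VC and 5.88, 5.49 and 5.67 in KO (-0.68 ± 0.12 SE, adjusted p = 0.0165). Its partner SMC2 fell by 0.63, nearly as far. Of the subunits particular to condensin I, NCAPH, which closes the ring, had 4.07, 4.002 and 4.07 in VC and 3.76, 3.09 and 3.36 in KO (-0.65 ± 0.18 SE, adjusted p = 0.0442). NCAPG fell by 0.47 and NCAPD2 by 0.45. For all 6 genes the KO libraries were under the VC libraries, as they were for 36.7% of the genes with 6 values.

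The 5 genes of the central spindle and cytokinesis all fell, where 19.8% of all tested genes did. ANLN, which encodes the contractile ring scaffold anillin, had log2 signals of 6.19, 6.31 and 6.22 in VC and 5.38, 4.66 and 5.07 in KO, a difference of -1.20 ± 0.19 (SE, adjusted p = 0.0141), or 43.5% of the VC signal. KIF23, the motor of centralspindlin, had 5.25, 5.37 and 5.26 in VC and 4.85, 4.34 and 4.50 in KO (-0.73 ± 0.15 SE, adjusted p = 0.0219). The groups were separate in both genes. KIF20A, a midzone kinesin, fell by 0.66, PRC1, which crosslinks midzone microtubules, by 0.59, and ECT2, the exchange factor that activates RhoA at the cleavage site, by 0.46. ECT2 had 4.81, 4.96 and 4.84 in VC and 4.55, 4.28 and 4.39 in KO (SE 0.0985, adjusted p = 0.0252).

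**Figure D3:**
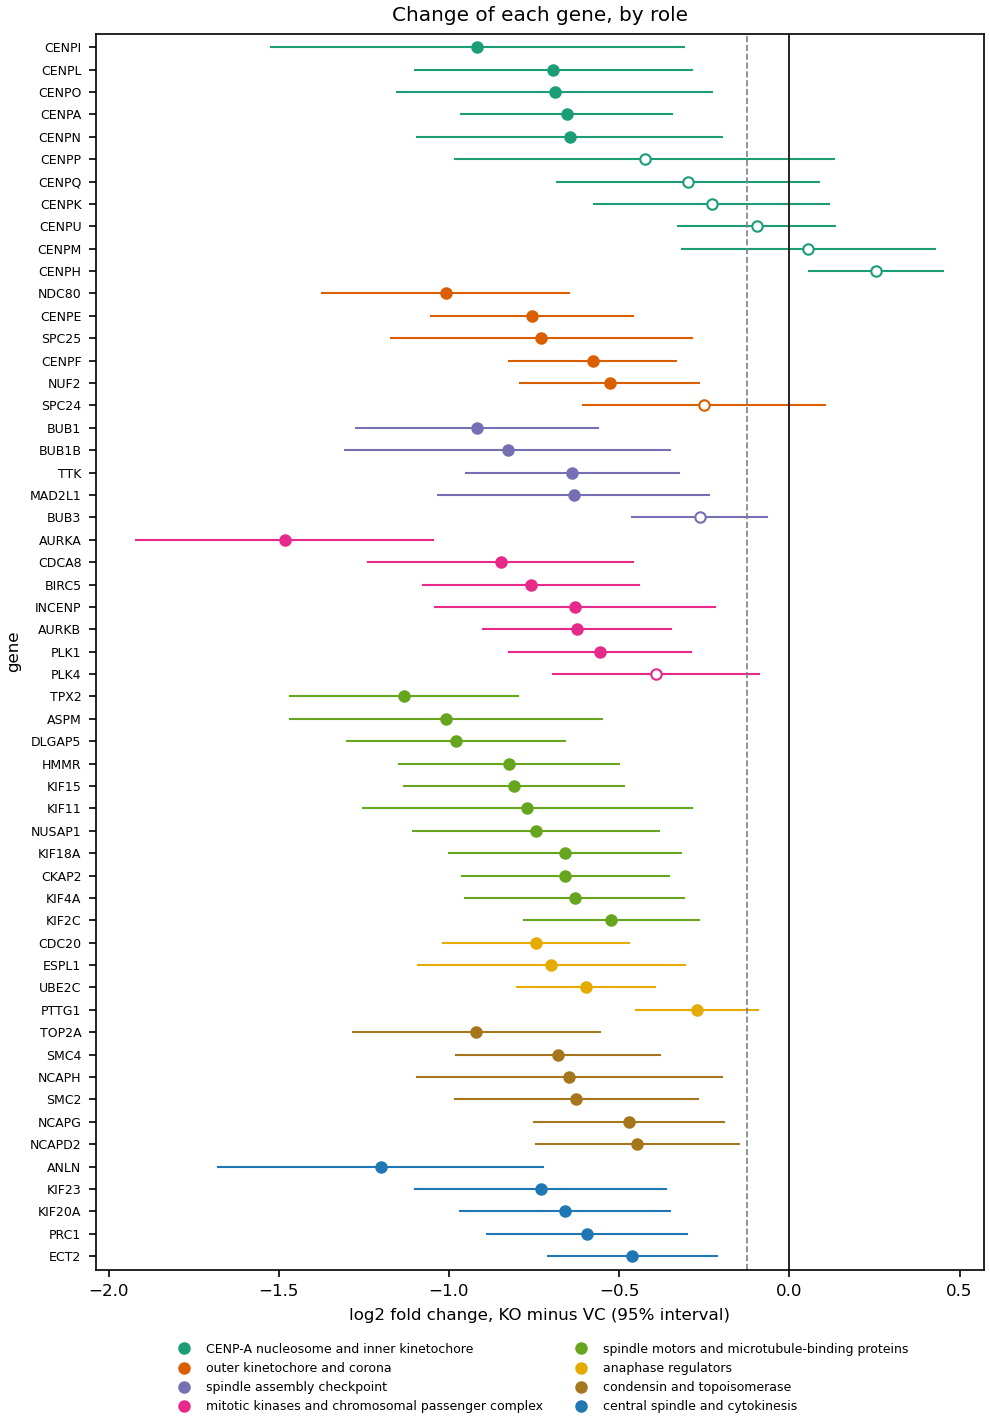
Log2 fold change (KO minus VC) of the 55 genes with its 95% interval from limma, coloured by role. Filled points had an adjusted p under 0.05 (46 genes, all lower), open points did not (9 genes, 6 of them of the inner kinetochore), and the dashed line is the median of all tested genes (-0.13).

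Of the 55 genes, 26 belong to the G2/M phase list of the Seurat package, and all 26 were called lower, with a median of -0.74. Of the 28 in neither of its phase lists, 20 were called lower, with a median of -0.63. CENPU, the gene in its S phase list, was not called. Among the genes with a promoter window, 32 of the 33 with CHR letters were called lower (median -0.69) and 8 of the 13 without them (median -0.52). The uncalled genes without CHR letters were SPC24 and the inner kinetochore genes CENPK, CENPP, CENPQ and CENPU, so letters and role were mixed. AURKA and TPX2 had no window and are not in this comparison. For CCAAT the order was the other way round, with medians of -0.64 for the 33 genes that held it and -0.69 for the 13 that did not. Called lower were 19.8% of all tested genes and 22.5% of those in the upper 50% of mean signal. Of the 55 genes, 5 were called in all 6 fits with a library left out. The counts by phase list and by letters describe genes that share the same libraries and are given without a test.

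The list was set beside 145 other cell division genes, taken by role from 10 lists. Of these, 70 (48.3%) were called lower and 5 higher, beside the 19.8% and 13.1% of all tested genes, with a median log2 fold change of -0.45. In place of 70, the number of other cell division genes called lower was 6, 10 or 3 on leaving out VC replicate 1, 2 or 3, and 108, 46 or 9 on leaving out KO replicate 1, 2 or 3. As shares of the 145 these are 4.14%, 6.90% and 2.07% and 74.5%, 31.7% and 6.21%, so that without a VC library or KO replicate 3 they lay near the shares of all tested genes given above for the same fits. Called decreases were made by 14 of 26 other kinetochore genes, 13 of 22 other spindle genes, 8 of 14 mitotic entry genes, 6 of 17 genes around the anaphase-promoting complex, 4 of 13 cohesin genes, 2 of 5 other condensation genes, 4 of 6 other cytokinesis genes, 3 of 10 centriole and centrosome genes, 6 of 10 tubulins and 10 of 22 regulators. The largest called decrease among the other spindle genes was that of FAM83D, a spindle protein (-1.23), and among the mitotic entry genes that of WEE1, the kinase that restrains CDK1 (-1.08). FAM83D lies on chromosome 20.

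CDK1, the kinase of mitotic entry, fell by 0.73 (adjusted p = 0.0213) and its partner CCNB1 by 0.80 (adjusted p = 0.0124). MKI67, which coats mitotic chromosomes, had log2 signals of 5.83, 5.88 and 5.84 in VC and 5.25, 4.38 and 4.78 in KO (-1.05, adjusted p = 0.0255). The KO libraries thus took the same places as in most of the 55 genes. CDK1 and MKI67 were called in 2 of the 6 fits with a library left out, and CCNB1 in 5. The cohesin list had the median nearest to 0 of the 10 lists, at -0.29, with ESCO2, an acetyltransferase of cohesin, as its largest called decrease (-1.05). ANAPC1, the scaffold of the anaphase-promoting complex, fell by 0.76 and ARHGAP11A by 0.85. The centrosome scaffold PCNT fell by 0.64 and the tubulin TUBA4A fell by 1.72.

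Of the 22 regulators of mitotic genes, 17 had a negative log2 fold change. In this list 10 genes (45.5%) were called lower and 3 higher, where 19.8% and 13.1% of all tested genes were. FOXM1 had log2 signals of 6.03, 5.99 and 6.07 in VC and 5.76, 5.17 and 5.36 in KO (-0.60, adjusted p = 0.0423). MYBL2, which encodes B-MYB, had 6.80, 6.67 and 6.83 in VC and 6.07, 5.33 and 5.62 in KO (-1.10, adjusted p = 0.0178). It lies on chromosome 20. In both, KO replicate 2 was lowest and no KO value reached the VC range. E2F2 had the lowest difference of the regulators (-1.75, adjusted p = 0.0334). In the other direction LIN37, a subunit of the MuvB core, had 1.45, 1.61 and 1.42 in VC and 2.20, 2.68 and 2.21 in KO (0.87, adjusted p = 0.0175). RBL2, which encodes the pocket protein p130 of DREAM (0.38, adjusted p = 0.0327), and the repressor E2F7 (0.86, adjusted p = 0.0148) were the other regulators called higher. RBL2 and FOXM1 were each called in 1 of the 6 fits with a library left out. MYBL2 and E2F2 were called in 2 of them, and LIN37 and E2F7 in 4. Other parts of these complexes went the other way. The pocket protein gene RBL1 (-0.81, adjusted p = 0.0218) and the MuvB gene LIN52 (-0.54, adjusted p = 0.0238) were called lower. Both were called in 2 of the 6 fits with a library left out. RBL1 lies on chromosome 20 and LIN52 on chromosome 14. The tested genes outside the 55 in the upper 50% of mean signal had medians of -0.24 and -0.35 there. The MuvB genes LIN9, LIN54 and RBBP4 had -0.31, -0.20 and -0.26 and were not called. E2F8 had -1.10 (adjusted p = 0.0547). The other regulators called lower were E2F1 (-1.07), E2F3 (-0.48), E2F5 (-1.53), TFDP1 (-0.72) and NFYB (-0.70). Their adjusted p was 0.0182, 0.0306, 0.0149, 0.0408 and 0.0120 in that order. E2F1, E2F3 and TFDP1 were called in 2 of the 6 fits with a library left out, E2F5 in 3 and NFYB in 5. E2F1 lies on chromosome 20. Of the other NF-Y genes, NFYA had -0.45 and NFYC 0.25, and neither was called. ANAPC11 (0.43, adjusted p = 0.0173) and the condensin II subunit NCAPH2 (0.46, adjusted p = 0.0161) were the called increases outside the regulators. NCAPH2 and CENPM lie on chromosome 22, whose 238 tested genes outside the 55 in the upper 50% had a median of 0.31.

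**Figure D4:**
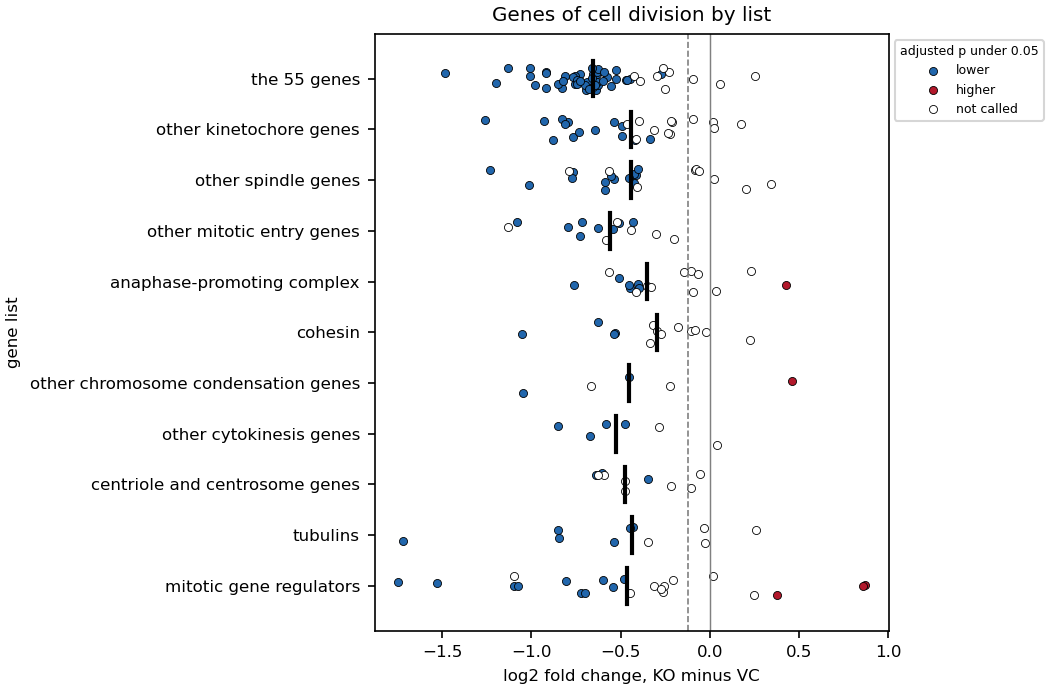
Log2 fold change (KO minus VC) of the 55 genes and of the 145 genes in 10 other lists of cell division (points, spread vertically for sight), with the median of each list (black bars) and of all tested genes (dashed line). The 55 genes have the lowest median, -0.65, and called increases are in the anaphase-promoting complex, condensation and regulator lists.

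Facts of the libraries bear on all of these values. Each library had a value for between 20333 and 21041 genes, and all shared a median log2 signal of 0.62, since the authors had quantile-normalised them. Read depth is unknown for these values. For CNTNAP4, the table lists a signal in 1 library, VC replicate 3 (-7.18), near the lower end of its scale, so these values do not check the deletion. Of 8 osteoblast-lineage markers, 6 had a value in every library (SPARC 6.50 in VC and 6.87 in KO, RUNX2 1.35 and 1.56), SP7 had a value in 4 libraries and BGLAP in none of VC. Of these 8, 4 were called higher (COL1A1, SPARC, ALPL and SPP1) and 1 lower (COL1A2) in KO, where 13.1% and 19.8% of all tested genes were. The largest change of them was that of SPP1 (2.47 in VC and 4.02 in KO). COL1A2 had -4.81 in VC and -5.62 in KO. Of 5 mesenchymal markers, NT5E was called lower (4.602 in VC and 3.945 in KO, adjusted p = 0.00874) and the others were not called (VIM 10.44 and 10.82, CD44 6.32 and 6.36, ENG 4.21 and 4.02, THY1 -4.97 and -6.21). Leukocyte and endothelial markers had VC means between -7.86 and -4.17 except CD68, a lysosomal protein of many cells. CD68 was called higher (4.47 in VC and 6.12 in KO, adjusted p = 0.00963). Of 3 epithelial markers, EPCAM was called lower (1.71 in VC and 1.04 in KO, adjusted p = 0.0157). CDH1 had a value in 1 library (-8.04), and KRT5 had values in VC only (mean -5.73). The part of these markers and of the chromosome shifts in the results was not tested. In GENCODE release 29, 23 of the 55 genes share exon bases with another gene, 4 of them on the same strand (CENPA, BUB1B, NUSAP1 and PRC1) and CENPP by 3719 bases with IPPK on the opposite strand. The kit keeps the strand, and whether the counting used it is not given in the sources used here.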

How the data were processed

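RNA from 143B cells (3 VC and 3 CNTNAP4 KO libraries) was sequenced by the authors, and the deposited table holds log2 signals by gene symbol. Ranked from low to high, the 6 columns match closely, so the authors had quantile-normalised the libraries. What the log2 was taken of, the annotation and the read counts are not given in the sources used here. The submitters' processing notes name CASAVA, STAR, Partek and GRCh38.p13, and the methods name CLC Genomics Server and Workbench.

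Signals were used as deposited, without further scaling, with limma 3.58.1 (R 4.3.3). Testing required 2 or more values per group. KO was compared with VC by limma's moderated test on all 19306 such genes, with two-sided p-values adjusted over all of them by the Benjamini-Hochberg method, and called at an adjusted p under 0.05. The methods call the 3 libraries of a group biological replicates from independent RNA samples of clonal cells. They do not say whether these came from separate clones, so p-values measure the spread between these libraries. The fit was tested on simulated data drawn with the same spread in both groups. That test does not cover the wider spread seen among the KO libraries. The 55 genes, the role groups and the 10 other lists were chosen with earlier results of these data known. In each of the 8 role groups, values by library are given for the genes with the 2 largest called changes, the gene with the highest adjusted p and any gene whose sign was opposite to the median of the 55, and the log2 fold change alone for the others. From the other lists, the largest called change in each direction and FOXM1, MYBL2, CDK1, CCNB1 and MKI67 are named. An item that this rule names is not reported here. UBE2C, E2F1, E2F3, E2F5, E2F7, E2F8, TFDP1, RBL1, RBL2, LIN9, LIN52, LIN54, RBBP4, NFYA, NFYB and NFYC were added after their values had been seen. Phase lists came from Seurat 5.3.0, chromosomes and promoters from RefSeq tables (GRCh38.p14), and exon overlaps from GENCODE release 29.

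Alternatives were genes with 6 values, the upper 50% by mean signal, centring each library on its median, a further quantile normalisation, 1 added to the linear signal, trend with robust estimation, no variance moderation, a replicate block, each library left out, and promoter windows of 250 bases. Values relative to the chromosome and without chromosome 20 were added after the data had been seen.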

Additional observations from a re-analysis of the deposited data

How the results depend on the processing

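The median log2 fold change of the 55 genes stayed between -0.79 and -0.57 under every alternative run. Median-centring moved the median of all tested genes from -0.13 to -0.042 and that of the list to -0.57, and 1 added to the linear signal moved them to -0.023 and -0.61. With a replicate block, 4 of the 55 genes (7.27%) were called lower, and of the 145 other genes 3 (2.07%) were called lower and 2 higher, where 4.86% of all tested genes were called lower. Whether same-numbered VC and KO libraries were prepared together is not given in the sources used here. Their deviations from the group means correlated by 0.023, 0.005 and -0.007 over 17698 genes. VC replicate 2 correlated best with KO replicate 3 (0.031). Taken within groups of 3 libraries, these values cannot show whether the libraries were paired. With no variance moderation 32 of the 55 and 36 of the 145 genes were called lower, and 12.6% of all tested genes. With single libraries left out, the counts called lower ranged from 5 to 51 of the 55 and from 3 to 108 of the 145, and the count called higher of the 145 from 0 to 6. Fits without a library have fewer degrees of freedom, and an arm of 2. Called increases in the 55 genes numbered 1 (CENPH) with genes of 6 values, the upper 50%, median-centring, a further quantile normalisation, 1 added to the linear signal, and trend with robust estimation. In the 145 they numbered 9 with the upper 50%, 1 added to the linear signal or trend with robust estimation, and 8 with median-centring. CENPM changed sign, to -0.03 without VC replicate 2 and -0.075 without KO replicate 1, and leaving out single libraries gave it -0.075 to 0.121. The causes were not tested. Depth is unknown, so no counting error can be given.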
